A study of Mus musculus with 2 samples.

Results

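Zbtb16, Tcf7, Lef1, Tox, Sox4, Maf, Nfil3 and Id3 encode transcription regulators known from precursors of innate lymphoid cells (ILCs), the lymphocytes that carry no rearranged antigen receptor. These 8 of the 18786 genes in the deposited table were chosen by name for that role, and all 8 were found there. They were followed in single cells from mouse skin by their level, by the share of cells with at least 1 UMI (a molecular tag that counts each RNA molecule once), by co-detection, and in cells with and without UMIs of Fcer1g and Tyrobp.

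ILCs arise from lymphoid progenitors that lose other lineage options step by step. Nfil3 and Tox act early in this path and Tcf7, which encodes TCF-1, follows. Zbtb16, which encodes PLZF, marks a precursor committed to helper ILCs and is largely shut off in their mature progeny. Lef1 is the closest relative of Tcf7, and both proteins bind the same DNA motif. Sox4 and Maf take part in the differentiation of lymphocytes that share features with type 3 ILCs. Id3, like Id2, binds E proteins and keeps them off DNA, and it is induced quickly when lymphocytes are stimulated.

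The study sorted CD45+, Lin-, Thy1.2+ cells, named ILCs in the labels, from the collagenase-digested skin of mice of the strain C57/BL6, aged 1 or 14 postnatal days. Each age gave 1 library. RNA was captured with the 10x Genomics 5' kit, which reads transcripts from their 5' end. All cells share the same strain, tissue and sort, and the labels give no treatment, no number of animals and no sex. The cells of both libraries stand in 1 table, where a suffix divides their names into cell set 2 and cell set 1, and this suffix matches neither day in the labels. A ratio of set 2 over set 1 therefore describes 2 sets of cells and not ages. There were no replicates, so no test was run, and every interval is a 95% interval of counting error only.

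After cells with over 10% mitochondrial UMIs were left out, set 2 held 3508 cells and set 1 held 1441. The median depth was 4849 UMIs per cell in set 2 and 10683 in set 1, so shares of positive cells are also given after every cell was thinned to 3000 UMIs, which kept 3015 cells of set 2 and 1418 of set 1. Gata3, which ILC2s depend on, had UMIs in 70.1% of set 2 and 82.7% of set 1 without thinning. Its level was near equal, at 593 CPM (UMIs per 1000000 UMIs) in set 2 against 577 CPM in set 1. The nuclear RNA Malat1 stood at 22531 CPM in set 2 against 11133 CPM in set 1. Krt14, a keratinocyte gene that serves here as a gauge of free RNA, had UMIs in 0.855% of set 2 and 39.6% of set 1 without thinning, at 2.05 and 51.2 CPM. The 4 haemoglobin genes of red cells had the opposite order, with a sum of 210 CPM in set 2 against 127 CPM in set 1. No cell type that should lack the 8 genes was at hand, so their own free RNA could not be measured, and its part in the shares below was not tested. A gene without any UMI could still have up to 0.166 CPM in set 2 against 0.182 CPM in set 1, taking 3 UMIs as the limit. Of the barcodes, 4 occurred in both sets.

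On GRCm38, per the GENCODE M21 annotation, Zbtb16 lies at chr9:48654297-48836222, Tcf7 at chr11:52252371-52283014, Tox at chr4:6686353-6991557, Sox4 at chr13:28948919-28953713, Maf at chr8:115682942-115707794 and Nfil3 at chr13:52967209-52981073, all on the minus strand. Lef1 at chr3:131110471-131224356 and Id3 at chr4:136143497-136145755 lie on the plus strand. The RefSeq promoter table (GRCm38.p6) held 5 of the 8 genes, Tcf7, Lef1, Sox4, Nfil3 and Id3. Its starts differ from those of GENCODE for some genes, and the whole Id3 window of 250 bases lies inside the gene by the GENCODE coordinates above, so that it is not shown. The windows of Sox4 and Nfil3 are shown because both genes were at least 1.5-fold higher in set 1 along the stress response described below. They run over 216 bases, from 250 to 35 bases before the RefSeq start, the part of both windows that lies before the GENCODE start as well. Capitals mark CCAAT, the core of the CCAAT box, on either strand.
Sox4, chr13:28953734-28953949, minus strand: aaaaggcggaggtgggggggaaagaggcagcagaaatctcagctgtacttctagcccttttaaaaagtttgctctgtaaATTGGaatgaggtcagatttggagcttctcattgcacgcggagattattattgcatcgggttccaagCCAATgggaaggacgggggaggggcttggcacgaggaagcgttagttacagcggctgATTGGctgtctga
Nfil3, chr13:52981074-52981289, minus strand: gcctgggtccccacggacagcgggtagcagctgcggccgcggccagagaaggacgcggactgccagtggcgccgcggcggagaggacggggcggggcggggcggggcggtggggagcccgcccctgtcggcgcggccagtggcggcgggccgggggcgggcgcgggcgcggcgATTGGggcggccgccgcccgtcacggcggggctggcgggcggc
The Sox4 window held 3 CCAAT and the Nfil3 window 1. CCAAT occurs on either strand in 30.5% of all 32851 promoter windows of this length in the table. Neither window held the AP-1 motif TGANTCA (5.99% of windows), the CRE motif TGACGTCA (1.11%), the heat-shock motif GAANNTTC (5.6%), the TCF/LEF motif CTTTGA (12.5%) or the E-box CAGGTG (15.3%), each searched on both strands. No match says only that these letters are not in these windows.

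Between the cell sets, Tcf7, Sox4, Maf and Id3 were higher in set 2 and Zbtb16 was lower there. Of the 8 genes, 4 were at least 1.5-fold higher in set 2, as were 12.7% of the 9495 genes with at least 100 UMIs, and 1 was at least 1.5-fold lower, as were 22.8%. Their median log2 ratio was 0.69, beside -0.14 for all these genes.

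Of the factors that act early, Nfil3 stood at 212 CPM (205 to 219) in set 2 against 168 CPM (162 to 174) in set 1, a ratio of 1.26 (1.200 to 1.32). Tox, an HMG-box factor needed for the earliest ILC progenitors, had 97.6 CPM in set 2 against 138 CPM in set 1, and the ratio was 0.708 (0.665 to 0.753). Neither reached 1.5-fold, although Tox did at 2000 UMIs per cell (0.655), and the sets ordered these genes in opposite ways.

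Tcf7 stood at 157 CPM (152 to 163) in set 2 against 69.7 CPM (65.7 to 73.8) in set 1, a ratio of 2.26 (2.11 to 2.42). Its relative Lef1 was scarce in both sets, with 181 UMIs or 10.0 CPM in set 2, against 113 UMIs or 6.84 CPM in set 1. Its ratio of 1.47 passed 1.5-fold with TMM scaling, which sets the level of most genes equal, at 1.63. Zbtb16 went the other way, at 26.1 CPM (23.8 to 28.6) in set 2 against 49.05 CPM (45.7 to 52.5) in set 1, with a ratio of 0.533 (0.475 to 0.598). The genes of the 2 best known precursor factors, PLZF and TCF-1, thus differed between the sets in opposite directions.

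Sox4 had 81.3 CPM (77.2 to 85.5) in set 2 against 31.3 CPM (28.7 to 34.1) in set 1, a ratio of 2.60 (2.35 to 2.88). Maf stood at 375 CPM in set 2 against 176 CPM in set 1, and the ratio was 2.14 (2.04 to 2.23). Id3 reached 67.2 CPM in set 2 against 36.0 CPM in set 1, a ratio of 1.87 (1.69 to 2.07). Id3 counts were uneven among cells: 1 cell of set 1 held 28 UMIs, which was 4.71% of the Id3 UMIs of that set, and the highest cell of set 2 held 25. For each of the other genes the highest cell held at most 2.66% of the UMIs of its set.

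Shares of positive cells depended on depth. Without thinning, Nfil3 had UMIs in 55.1% of the cells of set 2 and 70.2% of set 1, the reverse of its CPM. At 3000 UMIs per cell the shares were 44.2% and 36.6%. Id3 likewise had UMIs in 14.7% of the cells of set 2 and 23.5% of set 1 without thinning, and in 11.01% and 10.2% with it. These last shares overlap within their intervals, while the summed level of Id3 was higher in set 2. Cells with at least 2 UMIs of Id3 made up 6.19% of set 2 and 7.08% of set 1 before thinning.

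For the other genes the thinned shares kept the order of the CPM. Maf was found in 55.0% of thinned cells of set 2 and 37.0% of set 1, and Tcf7 in 32.7% and 16.4%. Sox4 was found in 16.0% of set 2 and 8.75% of set 1. The share for Zbtb16 was 5.94% in set 2 and 12.8% in set 1, and that for Tox 23.8% and 30.6%. Lef1 had UMIs in 2.65% of set 2 and 2.26% of set 1, shares whose intervals overlap.

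**Figure D1:**
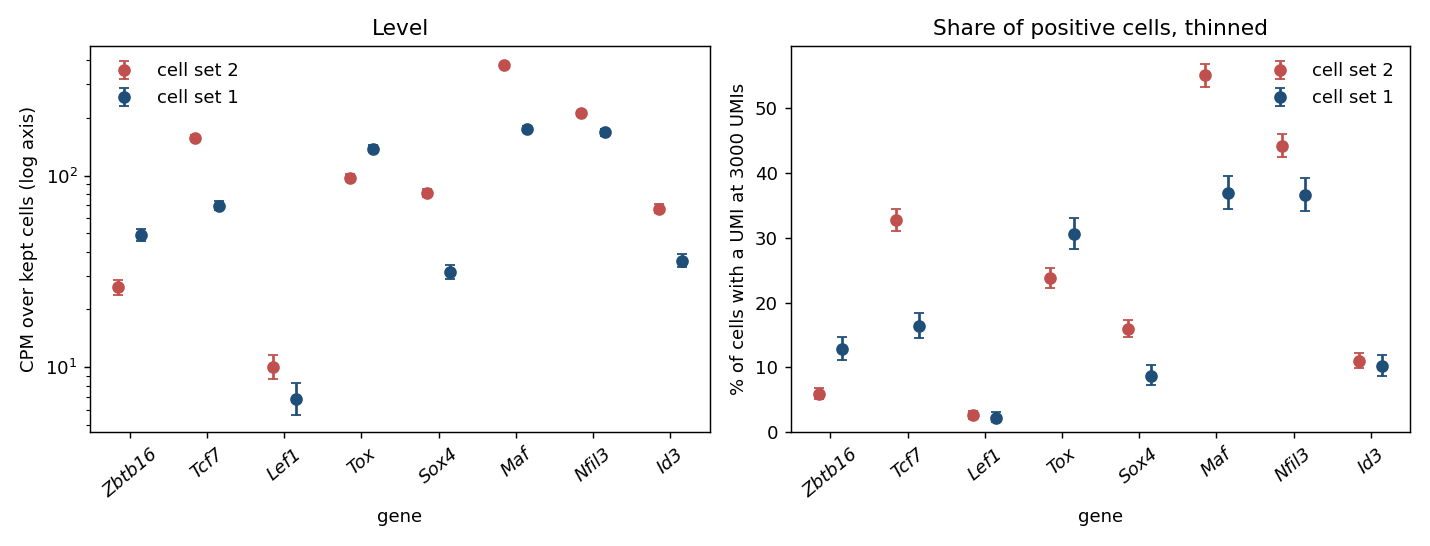
Level of the 8 genes in cell set 2 (red) and cell set 1 (blue), as CPM over kept cells on a log axis with exact Poisson 95% intervals (left), and the share of cells with a UMI after thinning to 3000 UMIs with Clopper-Pearson 95% intervals (right). Zbtb16 and Tox lie lower in set 2 than in set 1 in both panels, and heights of different genes are not to be compared, since CPM here are not scaled for how well each transcript is captured.

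Cycling cells, those with at least 5 UMIs of 8 cell-cycle markers, made up 4.19% of set 2 and 29.8% of set 1. Such a rule on UMIs depends on depth. Applied to cells thinned to 3000 UMIs, it was met by 3.25% of set 2 and 17.35% of set 1. In set 1 none of the 8 genes was at least 1.5-fold higher in cycling cells (11.2% of all genes were) and 5 were at least 1.5-fold lower (4.77% were): Zbtb16, Tcf7, Lef1, Sox4 and Id3. Zbtb16 stood at 34.9 CPM in cycling and 59.1 CPM in non-cycling cells of set 1, a ratio of 0.591 (0.506 to 0.689). In set 2 none was at least 1.5-fold higher (17.6% of all genes were), and 2 were lower (11.6% were). One was Id3, with 25.4 CPM in cycling and 70.9 CPM in non-cycling cells, a ratio of 0.359 (0.251 to 0.497). The other was Lef1, with 8 UMIs in cycling cells and an interval that includes 1.

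Among cycling cells alone, set 2 over set 1 came to 0.924 for Zbtb16 (0.661 to 1.27) and 0.939 for Id3 (0.641 to 1.34). Among non-cycling cells the same ratios were 0.433 (0.381 to 0.492) and 1.68 (1.497 to 1.88). Tcf7, Sox4 and Maf were higher in set 2 in both kinds of cell, with Tcf7 at 157 CPM in set 2 against 53.4 CPM in set 1 among cycling cells and at 157 and 81.3 CPM among the others. How far the unequal shares of cycling cells set the ratios between the sets was not tested beyond these values.

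Type 2 cytokine cells, with at least 3 UMIs of Il4, Il5 and Il13, made up 30.4% of set 2 and 35.3% of set 1. At 3000 UMIs per cell the order turned, with 21.6% of set 2 against 14.7% of set 1. In set 1 Tcf7 and Zbtb16 were both lower in them, 2 of the 8 genes, with 4.38% of all genes at least 1.5-fold lower, and 0 of the 8 were higher, with 2.19% of all genes higher. Tcf7 had 42.1 CPM in cytokine-positive and 88.1 CPM in the other cells of set 1, a ratio of 0.478 (0.416 to 0.548). Zbtb16 had 31.8 and 60.5 CPM there, a ratio of 0.525 (0.447 to 0.616). In set 2 Zbtb16 was again lower, at 18.5 CPM in cytokine-positive and 30.6 CPM in the other cells, with 2.84% of all genes lower. Tcf7 in set 2 had 165 CPM in cytokine-positive and 153 CPM in the other cells, a ratio of 1.08. Lef1 was the 1 gene at least 1.5-fold higher in cytokine-positive cells of set 2, at 12.9 against 8.35 CPM, with 3.73% of all genes higher.

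Cells with at least 2 UMIs of Cd3e, Cd3d, Trac and Trdc made up 9.61% of set 2 and 11.6% of set 1, and at 3000 UMIs per cell 5.01% and 2.26%, the reverse order. In set 1 none of the 8 genes differed by 1.5-fold between these and the other cells, where 3.62% of all genes were higher and the same percentage lower. In set 2 Zbtb16 was higher, at 37.4 CPM in these cells and 24.7 CPM in the others, a ratio of 1.52 (1.17 to 1.94), with 3.99% of all genes higher. Lef1 was lower, with 13 UMIs in these cells and an interval that includes 1, where 3.61% of all genes were lower.

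Fcer1g and Tyrobp encode signalling adaptors of innate receptors. Cells with at least 4 UMIs of the pair, called positive here, were 58 in set 2 (1.65%) and 164 in set 1 (11.4%). In thinned cells the same rule was met by 1.26% of set 2 and 5.99% of set 1. Such cells are a range of a UMI sum and not a type. No UMI of either gene was found in 3375 cells of set 2 and 1186 of set 1. Near the threshold, 14 cells of set 2 and 12 of set 1 had 3 UMIs, and 6 and 12 had 4. Set 2 would hold 93 positive cells from 2 UMIs on and 28 from 8 on.

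In set 1 the positive cells had more Tcf7 and Zbtb16 than the rest. Of the 8 genes, 2 were at least 1.5-fold higher, with 13.0% of all genes higher, and 2, Lef1 and Id3, were at least 1.5-fold lower, with 14.9% lower. Tcf7 stood at 265 CPM (241 to 292) in the 164 positive cells and 49.0 CPM (45.5 to 52.7) in the 1277 others, a ratio of 5.41 (4.79 to 6.11). Zbtb16 stood at 107 CPM (91.5 to 124) in positive and 42.9 CPM (39.7 to 46.4) in other cells, a ratio of 2.49 (2.09 to 2.96). At 3000 UMIs per cell, Tcf7 was found in 50.9% of positive and 11.95% of other cells, and Zbtb16 in 20.9% and 11.7%. Krt14 was found in 38.4% of positive and 39.8% of other cells of set 1, nearly equal shares.

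Of the other genes in set 1, Id3 had 23.4 CPM in positive and 37.3 CPM in other cells, a ratio of 0.628 (0.438 to 0.877). It was 0.385 at 3000 UMIs per cell, and short of 1.5-fold in 3 of 13 other settings, reaching 0.793 in cells with Y-linked UMIs and no Xist UMI. Lef1, with 6 UMIs in positive cells, had a ratio of 0.530 with an interval that includes 1 (0.190 to 1.19). The remaining 4 did not reach 1.5-fold. Maf and Nfil3 had ratios of 1.15 and 1.21, and Tox and Sox4 of 0.860 and 0.687. Sox4 was lower by 1.5-fold or more in 9 of 13 other settings, down to 0.299 at 2000 UMIs per cell. Tcf7 and Lef1, which share a binding motif, had ratios on opposite sides of 1. For Lef1 its 6 UMIs do not settle the side.

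In set 2, 1 of the 8 genes was at least 1.5-fold higher in the 58 positive cells, with 18.6% of all genes higher, and 2 were lower, with 18.7% lower, shares that leave the count close to the background. Tcf7 had 253 CPM (202 to 312) in positive and 156 CPM (150 to 161) in other cells, a ratio of 1.63 (1.30 to 2.01). With TMM scaling, which shifts every ratio here by -0.21 on the log2 scale, that ratio was 1.41, and it also missed 1.5-fold at 2000 UMIs per cell and with at least 2 UMIs of the pair, at 1.49 each. Zbtb16 rested on 12 UMIs in positive cells, at 34.9 CPM in them and 26.0 CPM in the others, a ratio of 1.34 with an interval from 0.689 to 2.37. Lef1 and Id3 had 1 and 15 UMIs in positive cells, and the intervals of both ratios include 1. Over the other settings the ratio of Id3 ran from 0.154 to 0.958. Sox4, with a ratio of 0.747, was lower by 1.5-fold or more in 9 of 13 of them. Maf stood at 296 CPM in positive and 377 CPM in other cells, a ratio of 0.786 (0.640 to 0.956), and 0.472 with at least 8 UMIs of the pair.

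**Figure D2:**
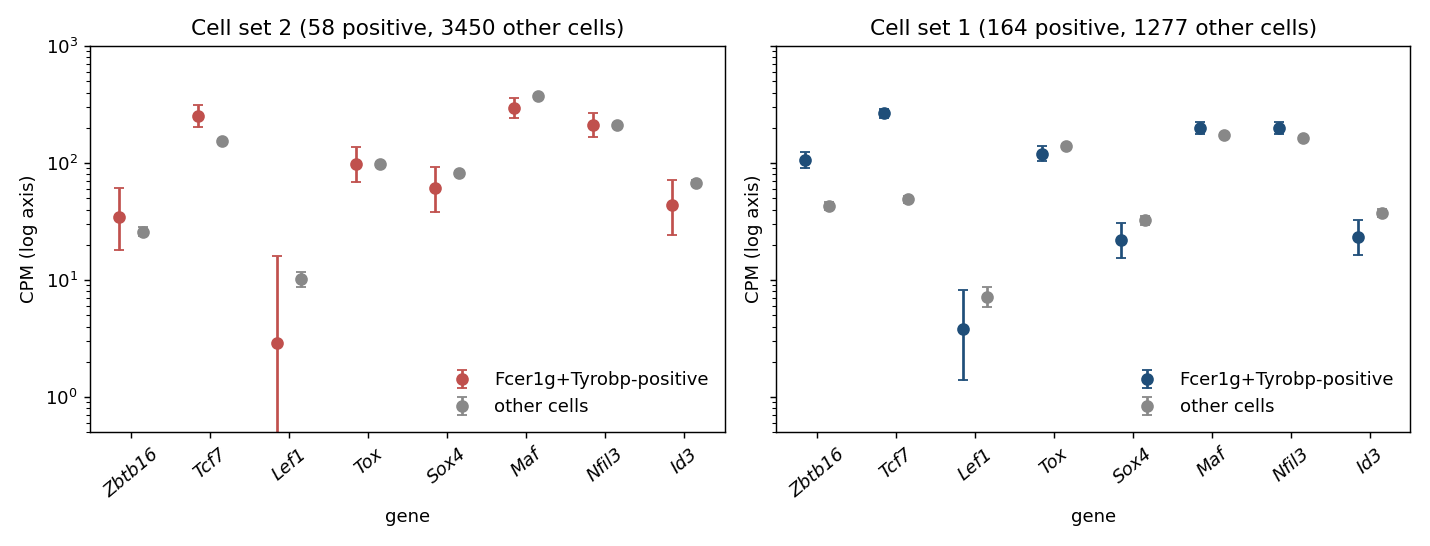
Level of the 8 genes in Fcer1g+Tyrobp-positive cells (coloured, left of each pair) and other cells (grey) of cell set 2 and cell set 1, in CPM on a log axis with exact Poisson 95% intervals. In set 1 Tcf7 reaches 265 CPM in positive cells against 49.0 CPM in others, while in set 2 the corresponding points lie at 253 and 156 CPM.

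In positive cells the interval of the ratio between the sets for Tcf7 includes 1, with 253 CPM in set 2 against 265 CPM in set 1, a ratio of 0.953 (0.747 to 1.203). In other cells it was 156 CPM in set 2 against 49.0 CPM in set 1, a ratio of 3.17 (2.92 to 3.45). Zbtb16 showed another pattern, with 34.9 CPM in set 2 against 107 CPM in set 1 among positive cells, a ratio of 0.326 (0.165 to 0.584). Among other cells it had 26.0 and 42.9 CPM, a ratio of 0.605 (0.535 to 0.683).

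Read by the number of Fcer1g and Tyrobp UMIs, Tcf7 in set 1 stood at 46.4 CPM in cells with none, 80.5 with 1 to 3, 247 with 4 to 9 and 274 with 10 or more. Zbtb16 in set 1 had 40.6, 71.7, 85.4 and 118 CPM in the same order. In set 2 Tcf7 had 153, 236, 272 and 222 CPM and Zbtb16 25.9, 28.9, 37.4 and 30.6 CPM, the last classes resting on 40 and 18 cells. In set 1 both genes thus climbed with the UMI sum, and Tcf7 made its largest step at the class of 4 to 9.

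**Figure D3:**
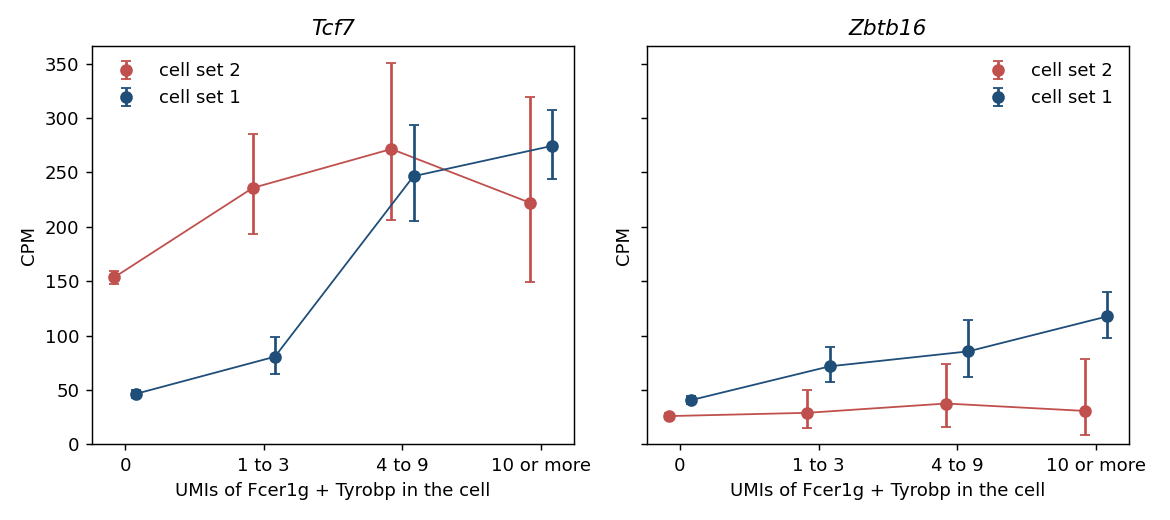
Level of Tcf7 (left) and Zbtb16 (right) in CPM, with exact Poisson 95% intervals, by the number of Fcer1g and Tyrobp UMIs in a cell, in cell set 2 (red) and cell set 1 (blue). Tcf7 in set 1 goes from 46.4 CPM in cells with none to 274 CPM in cells with 10 or more.

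Il22 encodes the cytokine of type 3 lymphocytes. In set 1 the positive cells had 280 CPM of Tcf7 where Il22 was also found (53 cells) and 257 CPM where it was not (111 cells), with 117 and 102 CPM of Zbtb16. The 47 cells with Il22 that were not positive had 105 CPM of Tcf7 and 44.3 CPM of Zbtb16. Tcf7 and Zbtb16 were thus high in positive cells with and without Il22. Over all 100 cells of set 1 with Il22, 2 of the 8 genes, Tcf7 and Zbtb16, were at least 1.5-fold higher than in the rest, with 9.17% of all genes higher. Lef1, with 1 UMI in these cells, was the 1 gene at least 1.5-fold lower, with 10.2% of all genes lower. Only 28 cells of set 2 held Il22. There Lef1, with 3 UMIs, was at least 1.5-fold higher, with 16.3% of all genes higher, and Maf, with 47 UMIs, lower, with 27.0% lower.

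Markers of several cell types moved with positivity. In set 1 the 9 ILC3 markers summed to 2129 CPM in positive and 158 CPM in other cells, 8 of the 9 at 10 CPM or more in positive cells, and the 8 ILC2 markers to 605 and 2450 CPM. The 7 ILC1 and NK markers summed to 446 and 89.7 CPM, with Ncr1 and Prf1 at 0 in positive cells. The alpha beta T markers in the table summed to 926 and 694 CPM, with Cd8b1 and Cd5 at 0 in positive cells, and the gamma delta T markers to 175 and 164 CPM. The 8 myeloid markers were near 0 in both, at 5.07 and 7.97 CPM, with Lyz2, Csf1r, Itgam, C1qa and C1qb at 0 in positive cells. The dendritic markers summed to 140 and 19.6 CPM, with Flt3 and Xcr1 at 0 in positive cells. The 5 mast markers summed to 399.5 and 169 CPM, all 5 at 10 CPM or more in positive cells. Of these Kit, also among the surface genes below, went against the sum, at 79.8 CPM in positive and 118 CPM in other cells. The 4 haemoglobin genes summed to 816 and 54.3 CPM, although Hbb-bs had UMIs in 23.8% of positive and 27.9% of other cells.

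In set 2 the ILC3 markers summed to 668 CPM in positive and 472 CPM in other cells, the ILC2 markers to 1069 and 2459 CPM, and the ILC1 and NK markers to 610 and 167 CPM, with Eomes and Gzma at 0 in positive cells. The alpha beta T markers came to 1107 and 865 CPM, with Cd8b1 and Cd5 at 0 in positive cells. Of these markers Cd3e had 98.8 and 4.13 CPM. The gamma delta T markers came to 465 and 320 CPM, with Tcrg-C2, Sox13 and Blk at 0 in positive cells. All 8 myeloid markers were at 0 in positive cells. The median depth was 5134 UMIs in positive and 4841 in other cells of set 2, and 8885 and 11005 in set 1. Malat1 was higher in positive cells of both sets, at 27472 against 22435 CPM in set 2 and 13623 against 10869 CPM in set 1. The part of these markers, of depth and of Malat1 in the levels of the 8 genes was not tested.

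The genes used to recognise ILC precursors, called surface genes here, also include Arg1, which encodes an enzyme inside the cell. Of the 10 measured in set 1, 7 were at least 1.5-fold higher in positive cells and 0 were lower. Of all genes 13.0% were higher and 14.9% lower. The median log2 ratio was 0.97, beside -0.04 for all genes. Arg1, named only because it is not a surface gene, was among the 7, with a ratio of 1.86. Cd7 had 262 CPM in positive and 11.1 CPM in other cells, Pdcd1, which encodes PD-1, 276 and 56.6 CPM, Itga4, an integrin chain, 263 and 55.3 CPM, and Il2rb, a chain of the IL-2 and IL-15 receptors, 666 and 205 CPM. In set 2, 6 of 10 were higher and 2 lower, beside 18.6% and 18.7% of all genes. Arg1 was among the 6, on 8 UMIs in positive cells and with an interval that includes 1. The 2 lower ones were Kit, the stem cell factor receptor, with a ratio of 0.396, and the chemokine receptor Cxcr6, with 0.619, named after its value was seen. Cd7 again differed most, at 427 CPM in positive and 43.3 CPM in other cells. The median log2 ratio there was 0.75, beside 0.06 for all genes. In set 1 Kit and Cxcr6 also lay below 1, short of 1.5-fold. Their ratios there, named after they were seen, were 0.678 (0.561 to 0.813) and 0.788 (0.735 to 0.845).

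Of 15 measured ILC lineage factors, 5 were at least 1.5-fold higher and 4 lower in positive cells of set 1, beside 13.0% and 14.9% of all genes, a median log2 ratio of -0.11. Runx3, which represses Cd4 and serves cytotoxic and type 1 lymphocytes, stood at 291 CPM in positive and 68.4 CPM in other cells. Gata3 had 103 and 627 CPM, and Bcl11b, which sustains ILC2 and T cell identity, 32.9 and 125 CPM. In set 2, 2 of 13 were higher, close to the 18.6% of all genes, and 5 lower, beside 18.7%, with Runx3 at 299 CPM in positive and 114 CPM in other cells and Gata3 at 171 and 601 CPM. Among relatives of the 8 genes in set 1, 4 of 9 were higher and 1 lower, beside the same 13.0% and 14.9%, led by Tox2 at 47.5 CPM in positive and 3.21 CPM in other cells, a ratio of 14.8 (10.2 to 21.7). Tox itself, as given above, had a ratio of 0.860 there.

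The same lists between the sets gave 6 of 15 lineage factors at least 1.5-fold higher in set 2 and 3 lower, beside 12.7% of all genes higher and 22.8% lower, to which the counts below compare as well. Id2, the partner of Id3 in restraining E proteins, had 1863 CPM in set 2 against 929 CPM in set 1. Myb, a progenitor factor, had 1.94 CPM in set 2 against 8.42 CPM in set 1. Of the 5 E and Id proteins, 1 was higher and 2 lower, with Id1 at 4.11 CPM in set 2 against 12.2 CPM in set 1, opposite to Id2 and Id3. Of 10 measured relatives, 1 was higher and 4 lower, with Tox2 at 1.22 CPM in set 2 against 7.45 CPM in set 1. Of 10 measured surface genes, 3 were higher and 2 lower, with the enzyme gene Arg1 among the lower at a ratio of 0.590.

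Cells were also ordered by the share of their UMIs in 9 stress genes, 6 early-response genes (Fos, Fosb, Jun, Junb, Egr1, Atf3) and 3 heat-shock genes (Hspa1a, Hspa1b, Dnajb1), which respond to tissue digestion as well as to stimulation, and divided into 4 bins of equal size within each set, from the lowest share (bin 1) to the highest (bin 4). Id3 followed this order closely. In set 2 Id3 stood at 20.7, 35.8, 59.8 and 167 CPM in bins 1 to 4, and bin 4 over bin 1 came to 8.06 (6.54 to 10.0), or 4.61 with the early-response genes alone, a split of the list chosen after the data were seen. In set 1 it had 18.9, 29.2, 29.5 and 73.5 CPM, a ratio of 3.89 (3.04 to 5.02).

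Counted over the 8 genes in set 2, 1 was at least 1.5-fold higher in bin 4 than in bin 1, with 13.0% of all genes higher, and 1, Zbtb16, was lower, with 12.5% lower. In set 1, where 7 of the 8 had at least 100 UMIs in these bins, 3 were higher, with 8.49% of all genes higher, and 1, Tox, was lower, with 13.5% lower. Nfil3 in set 1 had 102, 156, 210 and 220 CPM in bins 1 to 4, a ratio of 2.15 (1.92 to 2.42), but of 1.215 with the heat-shock genes alone. In set 2 it had 185, 213, 213 and 241 CPM, a ratio of 1.30. Sox4 in set 1 had 19.5, 31.8, 34.5 and 42.4 CPM, a ratio of 2.17 (1.66 to 2.85), and in set 2 76.3, 64.7, 94.96 and 91.2 CPM.

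Tox in set 1 declined over the bins, with 160, 154, 131 and 99.3 CPM, a ratio of 0.622 (0.547 to 0.708), but of 0.730 with the early-response genes alone. In set 2 it stayed between 95.5 and 100.4 CPM. Zbtb16 in set 2 had 31.7, 26.9, 26.7 and 17.9 CPM, a ratio of 0.565 (0.422 to 0.751). With the early-response genes alone that ratio was 0.7785, short of 1.5-fold. In set 1 it was highest in bin 3, at 66.8 CPM, and its ratio of 0.781 turned with the genes used, to 1.46 with the early-response genes alone and 0.362 with the heat-shock genes alone. Maf was 1.41-fold and 1.36-fold higher in bin 4 of set 2 and set 1, and 1.62-fold in set 1 without cycling cells. Tcf7 had ratios of 0.823 in set 2 and 1.195 in set 1.

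**Figure D4:**
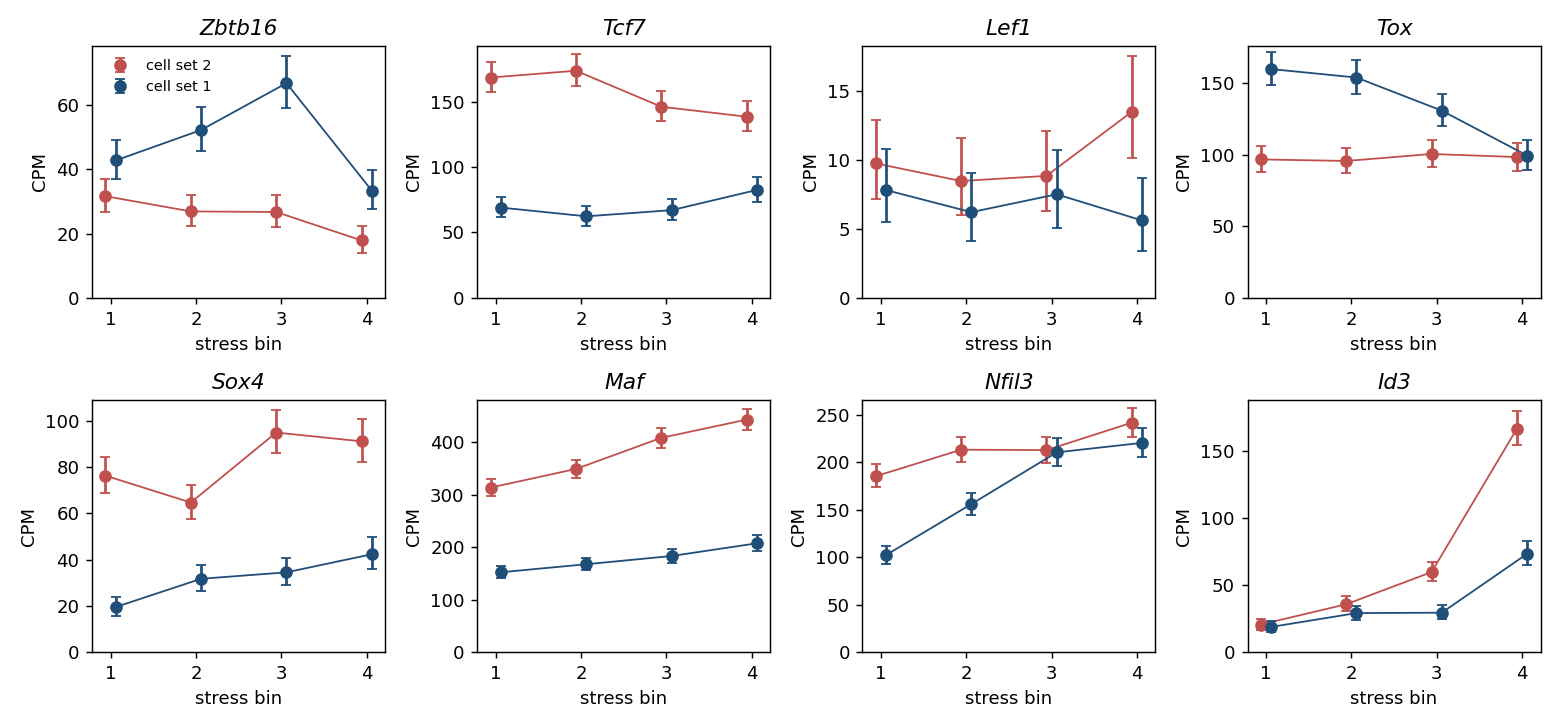
Level of each of the 8 genes in CPM, with exact Poisson 95% intervals, in 4 equal bins of the cells of cell set 2 (red) and cell set 1 (blue), ordered from the lowest (1) to the highest (4) share of UMIs in 9 stress genes. Id3 climbs in both sets, to 167 CPM in set 2 against 73.5 CPM in set 1, and Tox is level in set 2 and declines in set 1.

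Ratios between the sets changed with the bin. Id3 was 20.7 CPM in set 2 against 18.9 CPM in set 1 in bin 1, a ratio of 1.10 (0.815 to 1.48), and 167 and 73.5 CPM in bin 4, a ratio of 2.27 (1.97 to 2.63). Nfil3 had a ratio of 1.81 in bin 1 and 1.10 in bin 4. For Tox the ratio was 0.606 (0.538 to 0.680) in bin 1 and 0.989 (0.856 to 1.15) in bin 4. Tcf7, Sox4 and Maf were at least 1.5-fold higher in set 2 in every bin, and Zbtb16 was lower in every bin. The median share of UMIs in stress genes was 0.462% in set 2 and 0.408% in set 1, so the bins of both sets cover similar shares. The median depth was 5224 UMIs in bin 1 and 4420 in bin 4 of set 2, and 12295 and 9443 in set 1. Malat1 stood at 20312 CPM in bin 1 and 24463 CPM in bin 4 of set 2, and at 9668 and 12898 CPM in set 1. The ILC3 markers summed to 364 CPM in bin 1 and 581 CPM in bin 4 of set 2, and to 160.6 and 546.5 CPM in set 1. The ILC2 markers summed to 2995 and 1857 CPM in set 2, and to 2171 and 2182 CPM in set 1. In set 1 the median stress share was 0.7235% in positive and 0.391% in other cells, and 0.319% in cycling and 0.442% in non-cycling cells. The bins thus differ in their cells too. The part of cell make-up, depth and Malat1 in these levels was not tested.

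Among the relatives, Maff and Mafk, which encode small Maf proteins, the partners of AP-1 and CNC factors, were higher in bin 4. Maff had 21.3 CPM in bin 1 and 128 CPM in bin 4 of set 2, with 16.9 and 203 CPM for the same bins of set 1. Mafk stood at 15.02 CPM in bin 1 and 44.6 CPM in bin 4 of set 2, while the values for set 1 were 26.1 and 61.4 CPM. Mafg, the third small Maf gene, did not reach 1.5-fold, with ratios of 1.33 in set 2 and 1.39 in set 1. Of the 6 measured relatives, 3 were higher in set 2 and 2 in set 1, beside 13.0% and 8.49% of all genes, and 0 were lower in either. Of the 10 measured surface genes, 0 were higher and 4 lower in bin 4 of set 2, and 1 was higher and 3 lower in set 1, beside 12.5% and 13.5% of all genes lower, with Pdcd1 at 196 CPM in bin 1 and 22.1 CPM in bin 4 of set 2.

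In single cells the 8 genes were found together about as often as the product of their shares gives. Of the 28 pairs, 3 in set 2 and 3 in set 1 were co-detected in thinned cells at least 25% more often than that product, with 15.5% of all gene pairs above that line in set 2 and 19.5% in set 1. The median over the 28 pairs was 1.00 in set 2 and 1.01 in set 1. Cells with at least 4 of the 8 genes made up 7.43% of set 2 (6.52 to 8.42%), where the product of the shares gives 7.67%, and 3.67% of set 1 (2.75 to 4.78%), where it gives 3.96%. Cells with none of the 8 made up 8.72% of set 2 and 16.2% of set 1. No group of cells with most of these genes stood out at this depth.

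Sox4 and Id3 were the only pair of the 28 whose interval lay above 1 over all thinned cells of either set. With 28 pairs read in each set, 1 such interval can arise from counting error alone. The intervals also take the product as fixed. In set 2, 76 cells held both where the product gives 53.0, a ratio of 1.44 (1.13 to 1.79). Within stress bin 4 of set 2 it was 42 cells against 30.05, a ratio of 1.40 (1.01 to 1.87). In set 1 it was 12 cells against 12.7. Zbtb16 and Tcf7 were found together in 40 thinned cells of set 1 where the product gives 29.7, a ratio of 1.345 with an interval that includes 1 (0.964 to 1.82), and unthinned in 228 against 173, a ratio of 1.32 (1.16 to 1.48). Within positive cells of set 1 the ratio was 1.10 and within the others 1.195. In set 2 it was 1.09.

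Zbtb16 was found less often with Id3 and Sox4 in thinned cells of set 1, in 9 cells against 18.5 and in 8 against 15.8, with ratios of 0.486 (0.223 to 0.921) and 0.505 (0.219 to 0.993). Without thinning these ratios were 1.03 and 1.05, so both values held in thinned cells alone. Pairs with Lef1 rested on few cells, 6 with Sox4 and 7 with Id3 in set 1. Their ratios of 2.14 each had intervals that include 1.

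**Figure D5:**
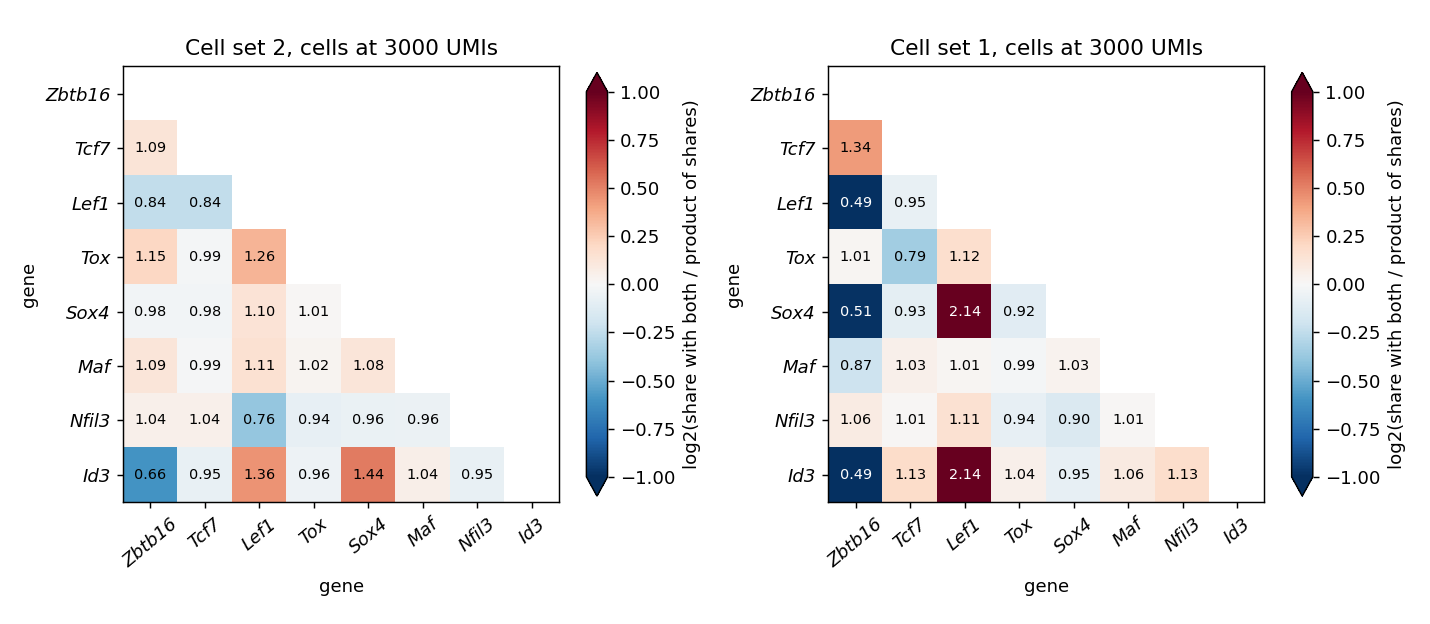
Co-detection of each pair of the 8 genes in cells thinned to 3000 UMIs, in cell set 2 (left) and cell set 1 (right). The number is the share of cells with both genes over the product of their shares and the colour is its log2, saturated beyond 1 and -1. Most squares lie close to 1, with Sox4 and Id3 at 1.44 in set 2. In set 1 pairs of the scarce gene Lef1 are highest and Zbtb16 with Id3 is lowest.

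The genes whose counts most resembled a member's were sought over the 3015 thinned cells of set 2 and the 1418 of set 1, by Pearson correlation of log2(1 + UMIs), and are named from a correlation of 0.2 on. The cells of a set share 1 library, and sparse counts keep such values low. For Tcf7 in set 1 they were Fcer1g (0.33), Cd7 (0.31) and Tyrobp (0.29). Fcer1g and Tyrobp define the positive cells, so their values restate the split by positivity and are not a separate result. For Id3 in set 2 they were Hspa1a (0.24), Hspa1b (0.24) and Nfkbia (0.21), and for Nfil3 in set 1 Junb (0.24) and Gem (0.21). Hspa1a, Hspa1b and Junb belong to the stress genes that ordered the bins, so their values likewise restate that order. Cd7, Nfkbia and Gem define neither the positive cells nor the bins. Cd7 was nevertheless far higher in positive cells of set 1, at 262 CPM against 11.1 CPM in other cells. How far its value restates the same split was not tested. No gene reached 0.2 for Zbtb16, Lef1, Tox, Sox4 or Maf in either set, for Tcf7 and Nfil3 in set 2 or for Id3 in set 1.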

How the data were processed

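The deposited table holds UMI counts per gene and cell, whole numbers that the authors had not scaled. The mm10 build, Cell Ranger 3.1.0 and Seurat 4.1.0 are named by the submitters' processing notes, with settings not given in the sources here. Its columns hold 5246 cells, 3775 of set 2 and 1471 of set 1, and 0 columns of another series. Cells with over 10% mitochondrial UMIs were removed (267 in set 2, 30 in set 1). No doublet caller was run, and leaving out cells above the 98th percentile of UMIs was tried instead. UMIs were summed over cells and given as CPM with exact Poisson intervals, ratios with exact binomial intervals of the UMIs and shares with Clopper-Pearson intervals, all covering counting error only. The kept cells held 18026148 UMIs in set 2 and 16514632 in set 1. Genes counted as measured from 100 UMIs over both groups compared, and median log2 ratios had 1 CPM added. Thinning drew 3000 UMIs per cell without replacement and dropped 493 cells in set 2 and 23 in set 1. TMM factors from edgeR 4.0.16 in R 4.3.3 were an alternative scaling and shifted every ratio of set 2 over set 1 by 0.15 on the log2 scale. Python 3.11.15, numpy 2.4.6, pandas 2.3.3 and scipy 1.17.1 were used, and the calculations were tested on simulated data. The 8 genes, the lists and the thresholds were chosen with earlier results of these data known. All 8 genes are named in every comparison, and of each other list up to 4 measured genes by the size of the log2 ratio were eligible to be named, beside markers of other cell types.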

Additional observations from a re-analysis of the deposited data

How the results depend on the processing

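Over the ratios of the 8 genes and 2 co-detected pairs, 440 of 528 values under other settings moved by less than the counting interval, 88 moved and 0 reversed a difference of at least 1.5-fold. Several ratios did cross the 1.5-fold line. For positive over other cells, Sox4 crossed it in 9 of 13 settings in each set and Id3 of set 2 in 5 of 13. Tcf7 and Zbtb16 of set 1 crossed it in 0 of 13. Of 76 counts and medians, 65 moved little. The median log2 ratio between the sets, 0.69, was 0.49 without cycling cells. The count of 1 gene higher in Fcer1g+Tyrobp-positive cells of set 2 became 2 at 2000 UMIs per cell, in cells with Y-linked UMIs and no Xist UMI, and with at least 8 UMIs of the pair. It became 0 with TMM factors, with at least 2 UMIs of the pair, and at 2-fold. The 3 pairs of set 1 became 5 at 2000 UMIs per cell, without cycling cells and in cells with Y-linked UMIs and no Xist UMI, and the 3 of set 2 became 0 at 1.5 times the product. The cause of these shifts was not tested. In set 1 the ratio of positive to other cells ranged from 4.90 to 6.16 for Tcf7 and from 1.97 to 2.96 for Zbtb16. With the early-response and the heat-shock genes taken apart, an alternative chosen after seeing the data, the ratio of Id3 in stress bin 4 over bin 1 was 4.61 and 6.06 in set 2 and 3.29 and 2.82 in set 1. With the heat-shock genes alone, all cells of set 2 without their UMIs formed the low group, since bin 1 would have been empty. No paired analysis was possible because there was 1 library per day, and no replicate could be left out. Lef1, with few UMIs, and the 58 positive cells of set 2 limit precision most.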
